A study of Mus musculus with 3 samples.

Results

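Potassium channel genes were examined for GATA4 binding in the stomach mucosa of adult mice. GATA4 is a zinc finger transcription factor that binds DNA letters centred on GATA and helps to specify the epithelium of the glandular stomach. The peaks described here are those whose nearest transcription start site (TSS), in the authors' deposited annotation, belongs to a gene with a symbol that begins with Kcn. The acid secretion genes Kcnq1, Kcne2, Kcnj15 and Kcnj16 and the noncoding transcripts Kcnq1ot1 and Kcnd3os were left out. This gave 281 of 50869 peaks. They were credited to 81 of the 90 protein-coding Kcn genes that remained in the gene table.

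The mice were labelled G4fb/fb R26 Bira/Bira, which denotes a Flag- and biotin-tagged GATA4 together with the biotin ligase BirA, and were 10 to 12 months old. All 3 libraries came from this genotype, and no library without the tag was used here. There were 2 libraries of GATA4 pulled down with streptavidin beads and 1 input library, made from chromatin before any pull-down and named after the same preparation as 1 of the pull-downs. Nothing in the labels says whether the pull-downs came from separate animals. The authors pooled both pull-downs before peak calling, which compared 38770530 tags of the pull-downs with 23023152 of the input after duplicates were removed. The values here therefore carry no replicate error, and no test between samples was possible. Mucosa holds several cell types, and the pooled peaks cannot be assigned to any of them. Peaks measure binding and not the expression of a channel.

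Potassium channels let potassium ions leave or enter a cell along their electrochemical gradient and thereby set its membrane potential. Voltage-gated channels open on depolarisation and are best known from nerve and muscle, inward rectifiers (Kcnj) hold the resting potential, and tandem-pore channels (Kcnk) give a steady leak of potassium. Channels of the Kcnm and Kcnn genes open with intracellular calcium. In gastric and other transporting epithelia, potassium channels recycle the ion across the cell membrane and so sustain ion pumps and secretion.

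The 3 potassium channel promoters printed here belong to the genes with the strongest peaks within 1 kb of the TSS that had an entry in the RefSeq promoter table of build GRCm38.p6. Each sequence is the 250 bases before the annotated start, on the strand of the gene, from 5′ to 3′. Capitals mark a match, on either strand, to any of the 4 GATA motifs searched. The first motif was AGATAA, the next was the variant AGATAG with another last base, and the remaining pair began with another first base, as TGATAA or, with both bases changed, as TGATAG. A site that matches one of these cannot match another.
Kcnj2, chr11:111065914-111066163, plus strand: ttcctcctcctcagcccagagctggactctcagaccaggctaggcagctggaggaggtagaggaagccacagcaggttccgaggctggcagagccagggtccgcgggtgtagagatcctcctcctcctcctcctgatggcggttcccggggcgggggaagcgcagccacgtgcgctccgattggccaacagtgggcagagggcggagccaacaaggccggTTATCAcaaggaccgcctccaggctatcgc
Kcnk5, chr14:20181783-20182032, minus strand: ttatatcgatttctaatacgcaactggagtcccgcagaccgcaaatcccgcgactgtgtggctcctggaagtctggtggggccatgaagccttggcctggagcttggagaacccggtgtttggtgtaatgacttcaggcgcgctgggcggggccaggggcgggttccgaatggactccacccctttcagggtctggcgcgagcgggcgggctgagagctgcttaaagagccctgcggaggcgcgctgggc
Kcnc1, chr7:46396218-46396467, plus strand: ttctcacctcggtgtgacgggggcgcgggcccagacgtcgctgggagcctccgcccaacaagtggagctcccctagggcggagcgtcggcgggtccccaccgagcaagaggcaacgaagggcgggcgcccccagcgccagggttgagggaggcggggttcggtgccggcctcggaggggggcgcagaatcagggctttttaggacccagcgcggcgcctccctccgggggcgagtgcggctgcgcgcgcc
The peaks were called on the older build mm9, so these coordinates are not those of the peaks. The Kcnj2 promoter held 1 match, to TGATAA on the opposite strand, which begins 30 bases before the start and stands in capitals, and the Kcnk5 and Kcnc1 promoters held none of the 4 motifs in this window. Among all 32851 promoters of the same length, 26.5% held at least 1 match, and of the 87 promoters of 66 matched potassium channel genes 16, or 18.4%, did. Some genes have several promoters. Counted by gene, 22.7% of the 66 channel genes had a match, against 26.6% of all genes. Among genes with a peak within 1 kb the order was the opposite, with 22.2% of channel genes against 19.1%. A match describes letters only, and its absence from this window says nothing about GATA4.

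GATA4 peaks lay near most potassium channel genes, but few of these peaks were strong. A credited peak lay within 10 kb of the TSS at 68 of 90 genes (75.6%), against 64.4% of all 21031 protein-coding genes with a curated transcript. Within 1 kb the count was 59 genes (65.6%), against 57.4% of all genes. Within 50 kb it was 77 genes (85.6%), against 70.9%, and at any distance 81 genes, against 73.7%. These shares were set side by side with no test of their difference. The channel genes were longer than all genes, with a median of 32.4 kb against 17.7 kb. Among the channel genes themselves, those of 100 kb or longer, a limit chosen after the values were seen, had a peak within 10 kb in 15 of 22 cases (68.2%). The shorter ones did in 53 of 68 (77.9%). All genes were not split by length, and the part of gene length in these shares was not tested.

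Strong peaks were fewer at these genes than the share in the whole list. The peak caller gave each peak a fold enrichment, which is the authors' value: the ratio of pull-down to local input coverage at the summit with 1 added to both sides, and a −log10 q-value. Of the 281 peaks 7 (2.49%, exact binomial 95% interval 1.01 to 5.07) had a −log10 q-value above the limit of 9.66 that marks the top 10%. In the whole list 9.86% did, since 933 peaks lay exactly on that limit; of these 2 belonged to channel genes, Kcnc1 and Kcns1. A top 10% peak within 10 kb of the TSS was found at 5 channel genes (5.56%), against 17.8% of all genes. The median fold of the 281 peaks was 4.32 (quartiles 3.92 and 4.93), against 4.37 (3.90 and 5.28) in the whole list. Among genes with a peak within 10 kb, the median of the strongest fold was 5.05, against 5.51 for all genes. At the stricter limit of a −log10 q-value of 5, the share of channel genes with a peak within 10 kb was 38.9%, against 44.6% of all genes, so the order of these shares was the opposite of that in the full list.

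**Figure D1:**
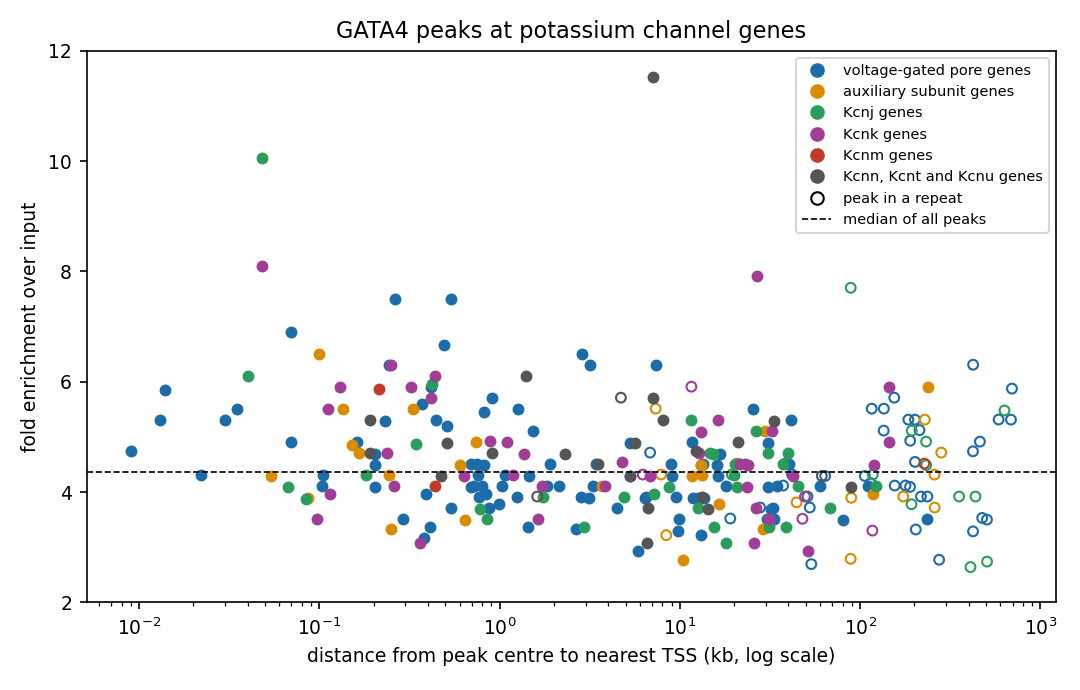
Fold enrichment over input of each of the 281 peaks (y axis) against the distance from the peak centre to the nearest TSS in kb (x axis, log scale); colours are the 6 channel groups, open circles are peaks in a repeat, and the dashed line is the median of all peaks at 4.37. Only 2 peaks, at Kcnn4 and Kcnj2, reached 10-fold, and beyond 100 kb most circles are open.

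The channel groups followed the gene symbols and differed in how often a peak was near, with small numbers of genes in each and no test of the difference. Of 39 voltage-gated pore genes (Kcna to Kcnd, Kcnf to Kcnh, Kcnq, Kcns and Kcnv) 31 had a peak within 10 kb, or 79.5%. Of 12 auxiliary subunit genes (Kcnab, Kcne, Kcnip and Kcnrg) 8 did, or 66.7%. The 13 Kcnj genes had 9 (69.2%), the 14 Kcnk genes 12 (85.7%), the 7 Kcnn, Kcnt and Kcnu genes 6 (85.7%) and the 5 Kcnm genes 2 (40.0%). The share of all protein-coding genes was 64.4%, and the auxiliary and Kcnj shares lay near it. For the median of the strongest fold per gene within 10 kb, the Kcnk genes were highest at 5.61 and the Kcnj genes lowest at 4.32. Most Kcnj peaks lay far from a TSS, 30 of 44 (68.2%) over 10 kb away, while 20 of 43 Kcnk peaks (46.5%) did, against 45.3% of all peaks. Of the 30 far Kcnj peaks, 10 were repeat peaks of Kcnj3 and 6 were Kcnj11 peaks annotated to Abcc8 or Nomo1. Sodium channel genes (Scn) had a peak within 10 kb at 9 of 14 (64.3%) and calcium channel genes (Cacn) at 18 of 26 (69.2%), also near the share of all genes. A top 10% peak within 10 kb was found at 1 Scn gene (7.14%) and 2 Cacn genes (7.69%), against 17.8% of all genes.

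**Figure D2:**
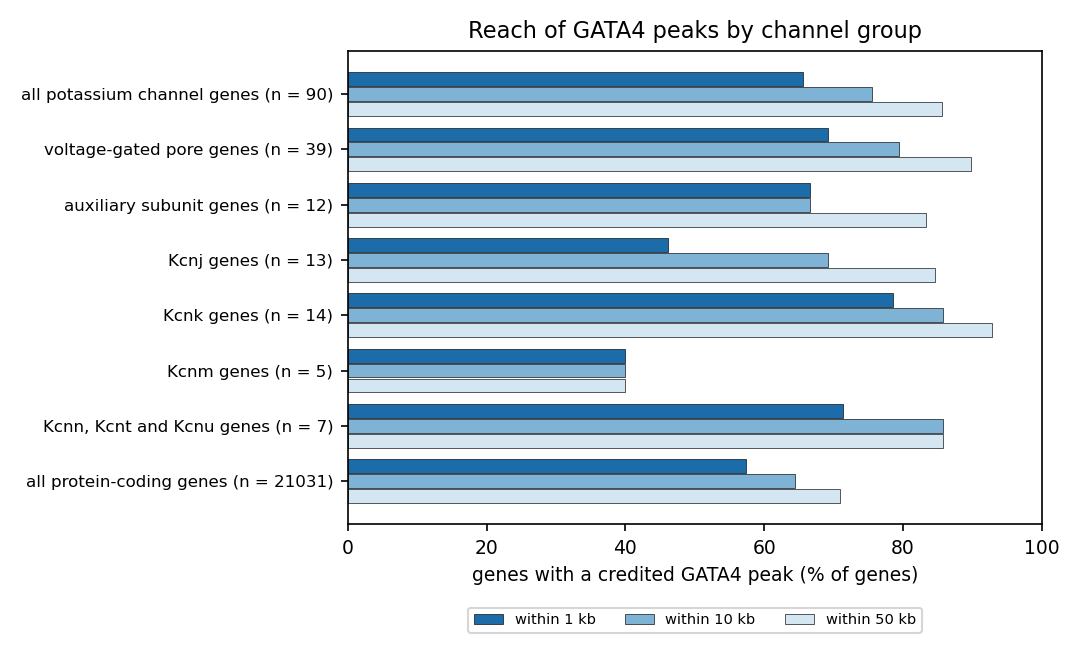
Share of genes in percent (x axis) with a credited GATA4 peak within 1, 10 and 50 kb of the TSS, for all 90 potassium channel genes, their 6 groups and all 21031 protein-coding genes. The Kcnk group has the longest bar within 1 kb, at 78.6%, and the Kcnm group stays at 40.0% in all 3 windows.

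Among the voltage-gated pore genes, Kcnh3 had a top 10% peak at its promoter, and the promoter peak of Kcnc1 lay exactly on that limit. Kcnc1 encodes a channel that lets neurons fire at high rates, and Kcnh3 encodes a channel of the ether-à-go-go type found in the forebrain. The Kcnh3 promoter peak (chr15:99054747-99055539) reached 7.50-fold at a pileup of 21.4 scaled tags. The Kcnc1 promoter peak (chr7:53651675-53652141) reached 6.91-fold. Kcnc4, a relative of Kcnc1, had 8 peaks outside repeats, 3.90-fold to 5.51-fold, of which 3 lay inside the neighbouring Slc6a17. Kcnq3, which encodes a channel of a slow current that restrains firing in neurons, had 1 peak, of 5.31-fold at its promoter. Kcnq5, a relative, had its strongest peak, 5.91-fold, in exon 1, and 4 of its 6 peaks in repeats.

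The Kcna genes, the Shaker-type channels of axons and lymphocytes, had modest peaks. Of 8 genes 5 had a peak within 10 kb, and the strongest peak of the subfamily, 5.31-fold, was credited to Kcna4 from 686 kb away in an L1Md_T repeat. Kcna2 had its strongest peak, 4.69-fold, 0.204 kb from the TSS. Kcna1 was the nearest gene of no peak. Of the 3 Kcnd genes, which encode channels of a transient current, Kcnd1 and Kcnd2 had a peak within 10 kb, and the nearest peak of Kcnd3 lay 31.0 kb away; the noncoding Kcnd3os had a 6.67-fold peak 256 bases from its own TSS. Kcnf1 and Kcns1 encode subunits that are silent by themselves and modify other channels. Their strongest peaks reached 6.66-fold in the 5′ untranslated region of Kcnf1 and 6.51-fold in exon 3 of Kcns1. Kcnh5 was the nearest gene of no peak.

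Kcnh2, which encodes the rapid delayed rectifier of the heart and is also present in epithelia and smooth muscle, was 1 of the genes with the most peaks. All of its 11 peaks lay within 10 kb of an annotated TSS and none in a repeat. They reached 3.30-fold to 6.31-fold, and the strongest (chr5:23827816-23828281) lay in intron 11. A peak in the 5′ untranslated region (chr5:23834775-23835579) reached 5.28-fold and another at the promoter (chr5:23857108-23858522) 3.96-fold. Both lay within 1 kb of a start, so Kcnh2 has several annotated starts, and each distance is to the nearest of them. None of its peaks was in the top 10%.

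Auxiliary subunits bind voltage-gated channels and change their gating or their traffic to the membrane. Kcnip3, which encodes a calcium sensor that binds Kcnd channels, had 3 peaks over promoters, and the strongest (chr2:127307536-127308734) reached 6.51-fold. Kcnip4, a gene of the same family, had its strongest peak, 5.91-fold, 239 kb upstream and no peak within 10 kb. The third rank was shared at 5.51-fold by Kcnab1, in an L1Md_T repeat, by Kcnab3 and by Kcne1l. The Kcnab3 peak was annotated to the transcription end site of Trappc1 and lay 0.135 kb from the Kcnab3 start. Kcne3, whose product pairs with Kcnq1 in intestinal epithelium, had 1 peak of 3.32-fold in its intron. None of the 34 peaks of this group was in the top 10%.

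In the inward rectifier group Kcnj2 stood at the top. Kcnj2 encodes a strong inward rectifier that holds the resting potential of muscle and other cells. Its promoter peak (chr11:110927101-110927760) reached 10.05-fold at a pileup of 39.2 scaled tags, which placed it 510th of all peaks by fold. Kcnj10, a channel of glia that is also known from gastric parietal cells, had a promoter peak of 6.11-fold (chr1:174271236-174271526). Kcnj4, a relative of Kcnj2, had one of 5.96-fold. Kcnj13 and Kcnj5 were the nearest gene of no peak. Kcnj6, of neurons, had 5 peaks of at most 4.72-fold, none within 10 kb. Kcnj1, of kidney tubules, had 1 peak of 3.37-fold at 15.4 kb.

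The channels that close with ATP pair the pore genes Kcnj11 and Kcnj8 with the receptor genes Abcc8 and Abcc9. All 4 genes had a peak within 10 kb, where 64.4% of all protein-coding genes did. Their 14 peaks had a median of 4.03-fold, against 4.37-fold in the whole list, and none was in the top 10%. Kcnj11 was credited with 9 peaks, none in a repeat, at 3.37-fold to 5.11-fold. Of these, 6 lay within the neighbouring Abcc8 gene and 1 at the transcription end site of Nomo1, so only the promoter peak (4.09-fold) and the exon peak (3.70-fold) lay in Kcnj11 itself. Abcc8 had a promoter peak of its own at 6.11-fold. Kcnj8 had 1 peak of 4.32-fold in its 5′ untranslated region, and Abcc9 1 of 3.07-fold at its promoter.

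The tandem-pore group was led by Kcnk5, which encodes a channel activated by alkaline pH outside the cell and known from transporting epithelia. It had 8 peaks, none in a repeat, and 2 of them were in the top 10%. The promoter peak (chr14:21000662-21001251), 0.048 kb from the TSS, reached 8.10-fold at a pileup of 23.2. A peak 26.8 kb upstream (chr14:21027572-21027992) had the larger pileup, 38.6, but the smaller fold, 7.92 since its input level was higher. The other 6 peaks reached 3.07-fold to 5.11-fold, and 5 of them lay in intron 1.

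Other tandem-pore genes also had peaks at their start. Kcnk1, a weak inward rectifier of kidney and other epithelia, had a 6.11-fold peak in exon 1 (chr8:128519029-128519852) and a 5.91-fold intergenic peak 144 kb away. Kcnk6, a close relative, had a 5.91-fold peak in exon 1. Kcnk7, a silent member, had 5 peaks within 10 kb, led by a 6.31-fold peak in exon 1, but 1 of the others lay in Map3k11 and 1 in Ehbp1l1. Kcnk2, a channel opened by stretch, had a 5.91-fold peak in an L1Md_A repeat and a 5.51-fold promoter peak.

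Kcnk3, which encodes an acid-sensitive leak channel, was the nearest gene of no peak but 10 peaks were annotated to its transcript, 1 of them to the end site. The annotation credits 7 of them to Gm9899 and 3 to Mir5625, whose starts are nearer. The strongest (chr5:30917783-30918242), in intron 1 of Kcnk3, reached 10.4-fold at a pileup of 30.3, 414th in the whole list, a fold above that of all peaks credited to channel genes but the strongest of Kcnn4. A peak in exon 1 of 2 reached 6.47-fold, and the other 8 reached 3.37-fold to 4.72-fold. In all, 30 peaks were annotated to a channel gene's transcript, its promoter and end site classes included, but credited to a gene outside the set. Of the 281 credited peaks, 19 were annotated in this way to another gene, 177 to the channel gene itself and 85 to none.

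The calcium-activated channels held the strongest credited peak and the group with the fewest peaks. Kcnn4 encodes the intermediate-conductance channel of secretory epithelia, red cells and lymphocytes. Its peak in exon 3 of 9, 7.12 kb from the TSS (chr7:25162054-25162748), reached 11.5-fold at a pileup of 45.1, 221st of all peaks by fold. Kcnn4 had 6 other peaks at 4.52-fold to 6.11-fold, of which 4 lay in intron 1, 1 in intron 7 and 1 in an L1M3e repeat upstream. Kcnn1 and Kcnn2, small-conductance channels of neurons, followed with 5.71-fold for an intergenic peak 7.06 kb upstream and 5.31-fold at the promoter. Kcnu1, a sperm channel, was the nearest gene of no peak.

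Kcnma1 encodes the pore of the large-conductance calcium-activated channel, and the Kcnmb genes its beta subunits. Kcnma1 had 1 credited peak, of 4.12-fold in exon 1 (chr14:24822878-24823099). A 6.11-fold peak (chr14:24823374-24824356) lay beside it in the promoter class of Kcnma1 but was credited to the noncoding 4930519K11Rik. Kcnmb4, the beta subunit of neurons, had 1 promoter peak of 5.88-fold, and Kcnmb2 1 peak of 4.52-fold, 227 kb upstream in an L1Md_F2 repeat. Kcnmb1, the beta subunit of smooth muscle, and Kcnmb3 were the nearest gene of no peak.

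**Figure D3:**
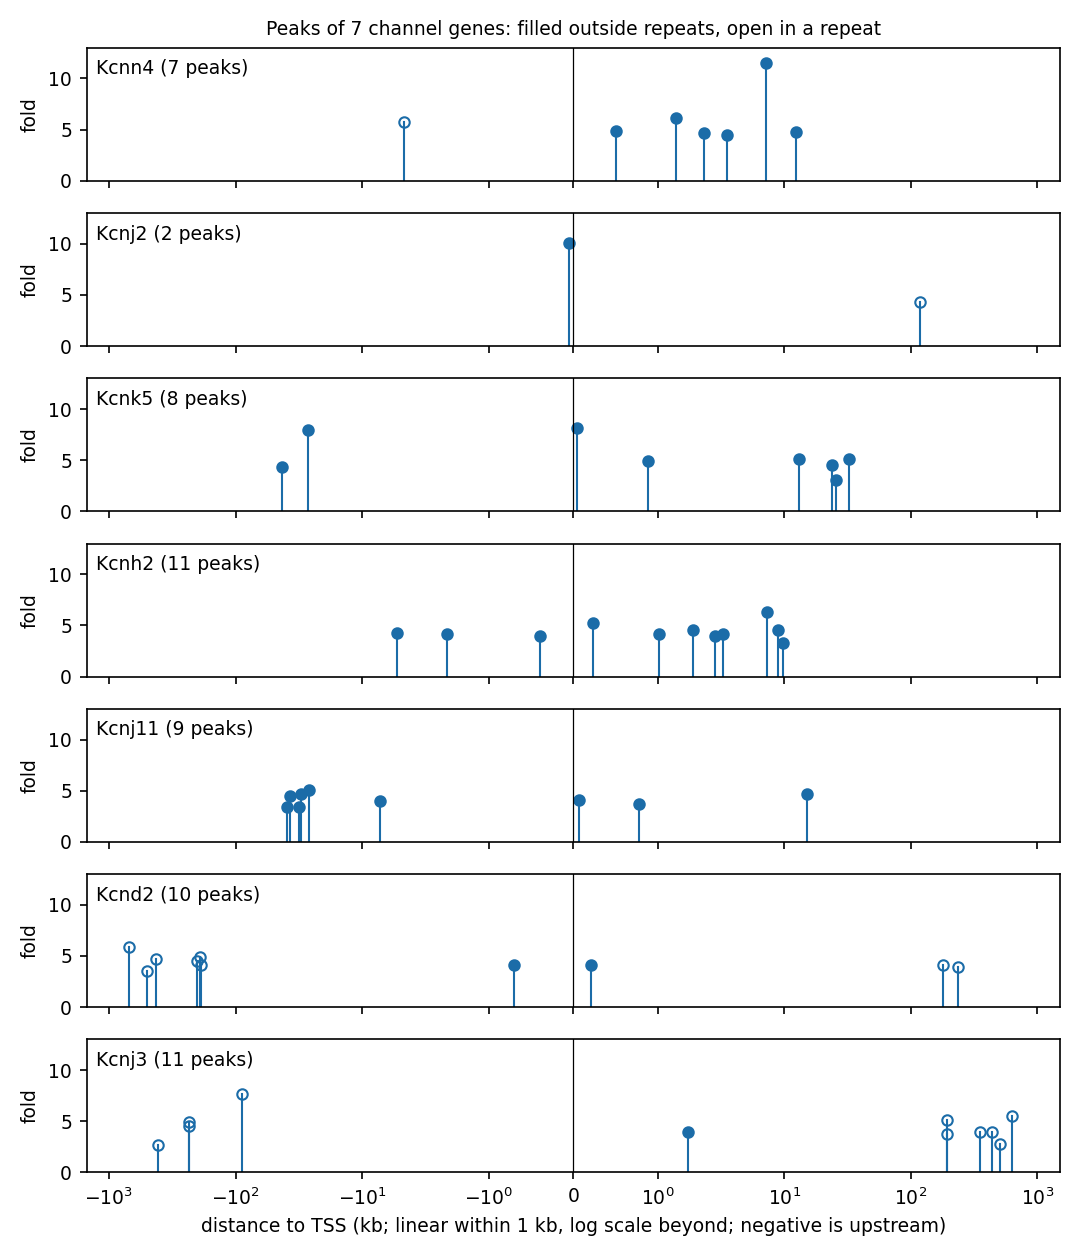
Fold enrichment of every credited peak (y axis) against its distance to the nearest TSS in kb (x axis, linear within 1 kb and log scale beyond, negative upstream) at 7 channel genes; filled circles lie outside repeats and open circles in a repeat. All Kcnh2 peaks lie within 10 kb of a TSS, and Kcnk5 and Kcnd2 each have 2 peaks within 1 kb and the rest farther away. In repeats lie 0 of 8 Kcnk5 peaks, 8 of 10 Kcnd2 peaks and 10 of 11 Kcnj3 peaks.

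Many distant peaks of potassium channel genes lay in young L1 elements, mobile DNA that is present in many near-identical copies. Of the 281 peaks 70 (24.9%, exact binomial 95% interval 20.0 to 30.4) were annotated to a repeat, against 19.5% of all peaks. The interval takes peaks as independent, but 10 of the 70 belonged to Kcnj3 and 8 to Kcnd2, so it is too narrow. The difference from all peaks was not tested. Of the 70 peaks, 54 were in L1 elements, 19.2% of the channel peaks against 11.5% of all peaks. The L1Md families made up 51 peaks at 20 genes, 28 of them L1Md_T and 12 L1Md_A. IAPEz-int, a retrovirus-like element, made up another 7. Reads from such copies can be placed at the wrong copy, and the sources used here do not give how reads with several matches were treated; the part of misplaced reads in these peaks was not tested.

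Repeat peaks were set apart by distance. None of the 83 peaks within 1 kb of a TSS lay in a repeat, against 0.403% of all peaks at that distance. At 1 to 10 kb 7 of 60 did (11.7%, against 10.3% of all peaks). Near the TSS the shares were thus close to those of the whole list. At 10 to 100 kb the count was 19 of 86 (22.1%, against 26.5% of all peaks), and beyond 100 kb it was 44 of 52 (84.6%, against 72.6%). Peaks beyond 100 kb made up 18.5% of the channel peaks and 10.8% of all peaks. Repeat peaks of channel genes had a median of 4.31-fold and the other peaks 4.32-fold, where the whole list had 4.13-fold and 4.52-fold.

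Repeat peaks made up more of the peaks at long channel genes. The 22 channel genes of 100 kb or longer, a limit chosen after the values were seen, had 50 repeat peaks among 85 (58.8%), and the 68 shorter genes 20 among 196 (10.2%). Across the 90 genes the number of repeat peaks followed gene length with a Spearman rho of 0.37, and the number of other peaks with a rho of −0.05. Both are descriptions across genes that share a single peak list. Neither the split by length nor the rho was computed over all genes, so these values do not set channel genes apart. Of the 50 repeat peaks at the longer genes, Kcnj3 held 10 and Kcnd2 held 8. Kcnj3, a G protein-gated rectifier of heart and brain, had 10 of its 11 peaks in repeats, among them its strongest, 7.70-fold in an L1Md_A element 88.7 kb upstream (chr2:55199343-55200112). Kcnd2, the main subunit of the transient current in neuron dendrites, had 8 of 10 in repeats, and its remaining pair of peaks, 0.205 and 0.696 kb from the TSS, reached 4.09-fold each. Kcne4, Kcnh7, Kcnmb2 and Kcnv1 had no credited peak outside a repeat. Only 7 channel peaks within 10 kb of a TSS lay in a repeat, and 68 channel genes had a peak within 10 kb with or without repeats. Among all 21031 genes the number was 13540 with repeats and 13234 without.

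**Figure D4:**
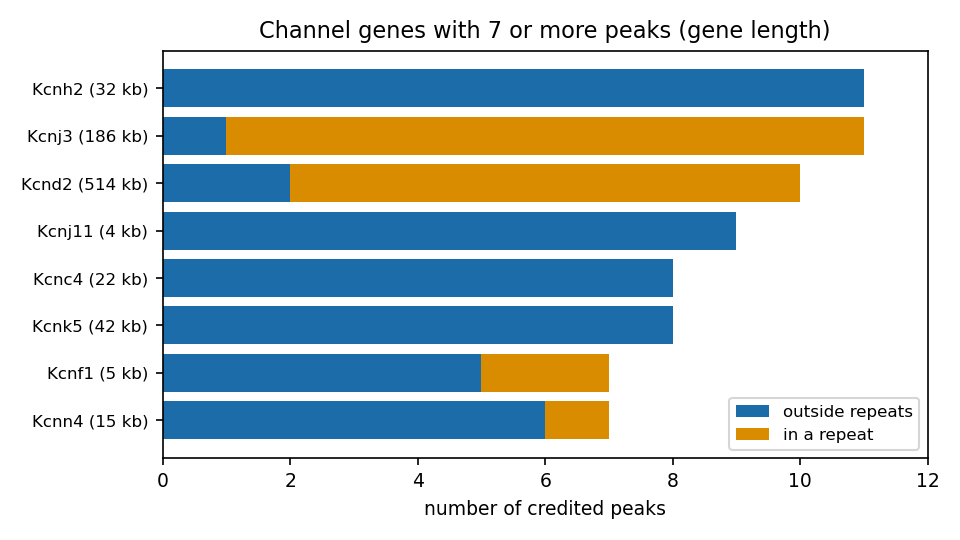
Number of credited peaks (x axis) at the channel genes with 7 or more peaks, split into peaks outside repeats (blue) and in a repeat (orange), with gene length in kb beside each symbol. Kcnh2 and Kcnj3 both have 11 peaks, with 0 and 10 in repeats.

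Channel genes with a peak at the start had promoters richer in CpG than channel genes without one. The ratio of observed to expected CpG was taken over the 300 bases around the start, as a median where a gene had several promoters. Its median was 0.54 (quartiles 0.33 and 0.74) in 45 genes with a peak within 1 kb. It was 0.32 (0.15 and 0.53) in 21 genes without, so the quartile ranges overlap. Over all genes in the promoter table the medians were 0.76 in 9680 genes with such a peak and 0.23 in 7173 without. The difference was not tested. Of the printed promoters, that of Kcnc1 had a ratio of 0.996, that of Kcnk5 0.878 and that of Kcnj2 0.540.

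**Figure D5:**
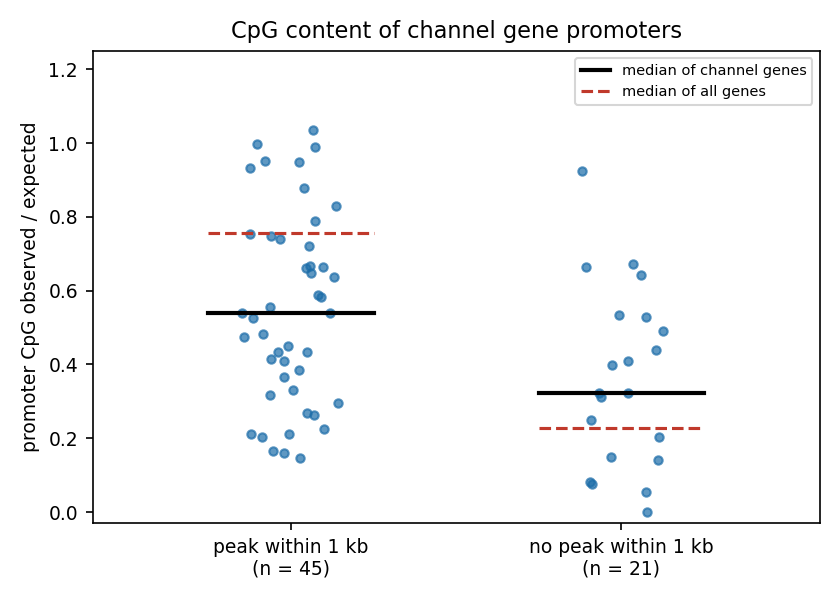
Observed over expected CpG in the 300-base promoter window (y axis) of potassium channel genes with and without a GATA4 peak within 1 kb of the TSS (x axis). Each point is a gene, at the median over its promoters. Black bars are medians of the channel genes and red dashed bars medians of all genes. The points of both classes overlap, with medians of 0.54 and 0.32.

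Lists by known role, chosen with earlier results of these data known, were described in the same way. Some genes could stand in either list below. Kcnh2, known from the heart, and Kcnj2, known from muscle, were placed with epithelia and glands, so the shares depend on the placing. Of 11 genes for channels of epithelia and glands 9 had a peak within 10 kb (81.8%), all but Kcnj1 and Kcnj13. Of 14 genes best known from nerve and muscle 9 did (64.3%). The share of all protein-coding genes was 64.4%, and the difference between these small lists was not tested. Both counts rest on credit to the nearest TSS. Kcnk3, for example, counts as a nerve and muscle gene without a peak, yet the 6.47-fold peak in its exon 1 was credited to Gm9899. Of 7 partner genes outside the Kcn symbols 4 had a peak within 10 kb. These were Amigo1, a membrane protein, at 6.11-fold, Lrrc26, an epithelial partner of Kcnma1, at 5.08-fold, and Lrrc38 and Lrrc55 of the same family. Dpp6 and Dpp10, partners of the Kcnd channels, had 2 peaks each, all in repeats, and Lrrc52 had none. Of the acid secretion genes left out, Kcnq1 had 12 peaks, up to 7.70-fold, and Kcnj15 had 4, up to 5.68-fold. Kcne2 and Kcnj16 had no peak within 10 kb.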

How the data were processed

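GATA4 pull-down and input libraries of mouse stomach mucosa were aligned to mm9 and processed with Bowtie2, MACS2 and HOMER, per the submitters' processing notes. Per the file headers, MACS2 2.1.0.20140616 pooled both pull-downs against 1 input at a q-value limit of 0.05, kept 1 tag per position and scaled the larger set to the smaller, by a factor of 0.594 per pull-down tag. The tables deposited by the authors give pileup, a coverage signal in scaled tags, fold enrichment, a ratio, −log10 q-values and a HOMER peak score. The name of the −log10 column was lost to a spreadsheet error; it was taken as the q-value because 10 times its value, cut to a whole number, equals the score at all 50869 peaks. Both tables gave the same coordinates, counted from 1.

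The caller's input level cannot fall below a genome average: with 1 added, it was under 3.1 at 235 of the 281 channel peaks (83.6%) and 74.8% of all peaks. Fold there follows pileup in steps, which left 72 distinct folds among the channel peaks.

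Gene types and lengths came by Entrez ID from a RefSeq table of GRCm38.p6, which lists the 90 channel genes; its coordinates were not mixed with those of the peaks. Counts, medians, exact Clopper-Pearson intervals and figures were made with Python 3.11.15, pandas 2.3.3, numpy 2.4.6, scipy 1.17.1 and matplotlib 3.10.9; counting was tested on simulated peaks. Intervals cover counting error only and take peaks as independent, although many peaks share a gene. Promoter sequences are from RefSeq. Named genes were, per group, the 3 with the highest fold, the genes with the most peaks, genes with a top 10% peak within 1 kb, all Kcnm genes and the lists by role; other genes were named to complete a count or a subfamily, after their values were seen. Members and lists were chosen with earlier results of these data known. Alternatives were a stricter q-value limit, peaks outside repeats, other distances, the 4 genes left out and the host transcript. Some genes that the rule names are not reported here.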

Additional observations from a re-analysis of the deposited data

How the results depend on the processing

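Of 52 alternative values 39 stayed within 1.5 times the count, or within the 95% binomial interval of the median or share, and 13 did not. All but 1 of these came from the stricter limit of a −log10 q-value of 5, which by construction keeps fewer and higher peaks. It left 73 of 281 peaks (26.0%, against 33.7% of all peaks) and 35 of 68 genes with a peak within 10 kb. The median fold rose to 5.51, the median strongest fold per gene to 5.91 and the share of peaks within 1 kb of a TSS from 29.5% to 45.2%. The share in the top 10% rose from 2.49% to 9.59%, which is 7 of the 73 kept peaks. In the whole list, 5015 of the 17132 kept peaks were in the top 10%. The 9.59% is therefore not to be set beside the 9.86% of the full list. At the stricter limit, genes with a peak within 10 kb numbered 16 of the voltage-gated, 5 of the auxiliary, 3 of the Kcnj, 7 of the Kcnk, 1 of the Kcnm and 3 of the Kcnn, Kcnt and Kcnu genes. Without repeats, the share of peaks within 1 kb was 39.3%. By host transcript there were 207 peaks, and with the 4 genes left out by the rule 300. No paired analysis was possible because the pull-downs were pooled by the authors into 1 list; for the same reason no replicate could be left out. Only the summed depth of both pull-downs is known.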
